A study of Mus musculus with 27 samples.

Results

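Reg4, Kit, Mptx1, Mptx2, Lyz1, Itln1, Mmp7, Defa17, Defa24 and Defa30 are genes of the secretory cells that sit at the base of intestinal crypts, and they were followed in mouse colon with and without the forkhead factors Foxa1 and Foxa2 in its epithelium. The 10 genes were taken by symbol from the 35975 genes to which the deposited transcript counts were summed, and all 10 were found. Of the 10, 6 passed the filter on low counts in proximal colon and 7 in distal colon, and the 3 defensins passed in neither.

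Poly(A) RNA was sequenced from short pieces of the whole colonic wall, and the values therefore pool all cell types of the wall. Deficient mice were labelled Villin1-Cre; Foxa1lox/lox; Foxa2lox/lox, were 9 to 13 months old, and gave 7 proximal and 7 distal libraries, with 5 mice labelled male and 2 female. Control mice were all labelled male, were 9 to 18 months old, and gave 7 proximal and 6 distal libraries. Of the 7 control mice, 5 were Foxa1lox/lox; Foxa2lox/lox with no Cre, replicate 1 was Villin1-Cre; Foxa1lox/wt; Foxa2lox/wt, and replicate 6 was Villin1-Cre; Foxa1lox/lox; Foxa2lox/wt. All mice were on a mixed background, and by these labels every mouse, controls included, carried loxP-flanked alleles of both genes. Villin1-Cre is a recombinase driven by an epithelial promoter, so Foxa1 and Foxa2 in other cells of the wall would be kept. Each replicate was a separate mouse, and 13 of the 14 mice gave both segments.

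Paneth cells lie at the base of small-intestinal crypts, where they secrete lysozyme, alpha-defensins and lectins into the crypt and supply stem cells with Wnt3, epidermal growth factor and Notch ligands. In mice the matrix metalloproteinase Mmp7 cuts alpha-defensin precursors into their active form. The colon normally has few or no Paneth cells, and its crypt base holds deep crypt secretory cells instead, which are marked by Reg4 and the receptor tyrosine kinase Kit and take over much of the niche role. Foxa1 and Foxa2 are forkhead factors that open chromatin in endoderm-derived epithelia and take part in the formation of secretory cells.

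Sequences are shown first for the start regions of Mmp7, whose change with genotype differed between the segments, of Mptx1, the most abundant of the 10 genes in distal control colon, and of Reg4, and then for the defensins, whose reads are hard to tell apart. The start regions are RefSeq sequence of GRCm38.p6, 250 bases before and 50 after a transcript start, on the gene's own strand. Capitals mark the forkhead words TGTTTAC and TGTTTGC and the TCF/LEF word CTTTGAT, each searched on both strands.
Mmp7, first of 2 listed starts, chr9:7691840-7692139, plus strand: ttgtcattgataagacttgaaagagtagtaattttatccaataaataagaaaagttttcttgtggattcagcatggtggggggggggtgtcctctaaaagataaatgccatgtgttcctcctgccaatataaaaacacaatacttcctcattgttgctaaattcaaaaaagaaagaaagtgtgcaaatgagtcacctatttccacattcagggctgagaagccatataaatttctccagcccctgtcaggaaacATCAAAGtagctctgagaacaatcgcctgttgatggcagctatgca
Mptx1, chr1:174330268-174330567, plus strand: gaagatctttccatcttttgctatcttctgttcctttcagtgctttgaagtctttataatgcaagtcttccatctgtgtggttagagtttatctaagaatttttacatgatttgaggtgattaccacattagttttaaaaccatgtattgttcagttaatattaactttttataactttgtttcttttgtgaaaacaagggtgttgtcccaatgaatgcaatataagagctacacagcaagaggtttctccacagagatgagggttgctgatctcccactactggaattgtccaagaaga
Reg4, chr3:98221906-98222205, plus strand: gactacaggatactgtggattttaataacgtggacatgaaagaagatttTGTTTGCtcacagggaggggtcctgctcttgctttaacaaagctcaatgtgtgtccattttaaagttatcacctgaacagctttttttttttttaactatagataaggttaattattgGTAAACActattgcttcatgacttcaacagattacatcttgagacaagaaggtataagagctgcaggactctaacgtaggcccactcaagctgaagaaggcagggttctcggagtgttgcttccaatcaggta

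The promoter table held 8 of the 10 genes. Reg4 was the 1 gene with a forkhead word, and it held both, TGTTTGC 201 bases before the start and the reverse complement of TGTTTAC 83 bases before it. Either forkhead word stood in 8.48% of the 32851 start regions in the table, TGTTTAC in 3.65% and TGTTTGC in 5.07%. The TCF/LEF word stood in the regions of Mmp7 and Defa30, against 3.73% of all regions. In the regions of Kit, Mptx1, Mptx2, Lyz1 and Itln1 none of the 3 words was found, which says only that these letters are not in those windows.

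The 3 defensins lie on chromosome 8 of GRCm38, Defa30 at 21134642 to 21135598, Defa17 at 21655780 to 21656735 and Defa24 at 21734494 to 21735471, all on the plus strand. The ends of their coding sequences, up to the stop codon, from the GENCODE M21 transcripts, differ at 7 positions, which are in capitals.
Defa17: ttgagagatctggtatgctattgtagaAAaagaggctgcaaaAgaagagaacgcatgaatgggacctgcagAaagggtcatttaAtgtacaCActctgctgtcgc
Defa24: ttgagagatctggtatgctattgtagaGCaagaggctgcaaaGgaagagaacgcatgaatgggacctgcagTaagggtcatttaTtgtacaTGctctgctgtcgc
Defa30: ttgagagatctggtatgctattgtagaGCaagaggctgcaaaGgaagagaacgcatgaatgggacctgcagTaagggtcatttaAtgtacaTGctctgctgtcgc
Over the whole coding sequence of 279 bases Defa24 and Defa30 were 98.6% identical, Defa17 and Defa30 97.1%, and Defa17 and Defa24 95.7%. Of the 31-base words of the Defa24 transcript, 46.3% also occurred in Defa30. Mptx1 and Mptx2 were 91.9% identical over 657 coding bases, and Lyz1 and its neighbour Lyz2 were 95.0% identical over 444. The authors' quantification divides reads that fit several such copies, so the split within each of these sets is uncertain.

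Levels are CPM, counts scaled to a common total from a library's estimated counts after one TMM scaling over all 27 libraries, and they can be compared between libraries but not between genes. Fold changes are log2 values with their standard error (SE) from edgeR's quasi-likelihood test, and a gene was called when its Benjamini-Hochberg adjusted p over all genes tested was under 0.05. Libraries held 18472867 to 56744113 estimated counts, so 3 counts, taken as the floor of detection, came to between 0.0534 and 0.196 CPM. In deficient libraries Foxa1 stood at 10.1 to 14.5 CPM in proximal and 7.2 to 10.5 CPM in distal colon, against 50.9 to 69.4 and 42.4 to 80.8 CPM in controls other than replicate 6. Control replicate 6, labelled with Cre and no Foxa1wt allele, had 13.9 and 7.6 CPM. Foxa2 stood at 1.23 to 1.75 CPM in proximal and 0.326 to 1.37 CPM in distal deficient libraries, against 6.05 to 15.7 and 15.5 to 30.4 CPM in controls. Distal libraries differed among themselves in the colon homeobox gene Cdx2. Deficient replicates 3 and 5 and control replicates 1 and 6 were under 100 CPM. Deficient replicates 4, 6 and 7, at 122, 107 and 147 CPM, also lay below the other distal controls, at 208 to 324 CPM. The distal genotype calls were also made without the 4 libraries under 100 CPM, named low in Cdx2 below, a choice made after seeing the data. That run keeps deficient replicates 4, 6 and 7. In whole tissue, fewer cells of a type and less RNA per cell cannot be told apart.

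**Figure D1:**
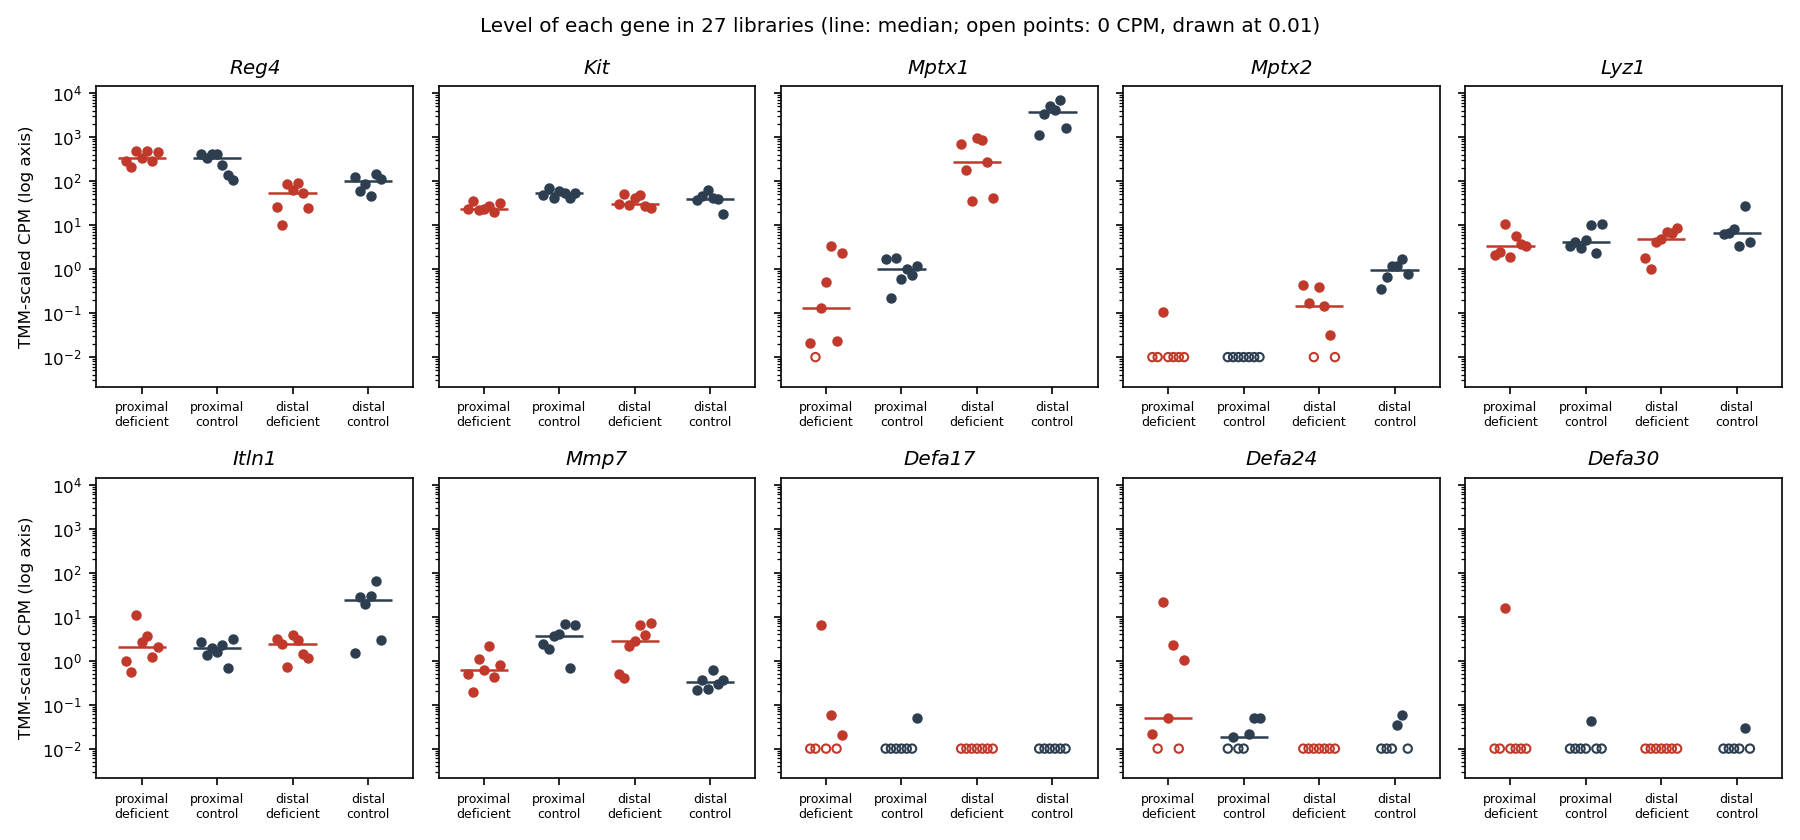
Level of each of the 10 genes (TMM-scaled CPM, log axis) in every library of the 4 groups, with the group median as a line where it is above 0 and libraries at 0 CPM as open points drawn at 0.01. Mptx1 was at 1126 to 7123 CPM in distal control colon and at no more than 3.44 CPM in any proximal library, and the 3 defensins were above 1 CPM in proximal deficient libraries alone.

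Per transcript length (TPM), Reg4 was the most abundant of the 10 genes in proximal colon, with a median of 537 TPM in deficient and 619 TPM in control libraries. Kit followed far below, at a median of 9.15 TPM in deficient and 17.6 TPM in control proximal colon. In distal colon Mptx1 stood first, with a median of 570 TPM in deficient and 7832 TPM in control libraries, and Reg4 came next, at 78.1 TPM in deficient and 144 TPM in control libraries. Itln1 ranked 6 of 10 in distal deficient colon at a median of 3.59 TPM and 3 of 10 in distal control colon at 32.3 TPM. Mmp7 ranked 5 in distal deficient colon at 4.0 TPM and 7 in distal control colon at 0.391 TPM. In distal deficient colon the range of each of these genes overlapped that of its neighbours in the order, Mptx1 (68.6 to 2101 TPM) with Reg4 (17.8 to 155 TPM), Reg4 with Kit, Kit with Lyz1, Lyz1 with Mmp7 and Mmp7 with Itln1. In distal control colon Itln1 (1.64 to 73.9 TPM) overlapped both Reg4 (65.1 to 195 TPM) and Kit (6.55 to 19.1 TPM). The order of these neighbours was not separated from the spread.

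Mmp7 was called in both segments, in opposite directions, and the other calls fell in 1 segment each. In proximal colon 2 of the 6 genes tested were called, Kit and Mmp7, both lower in deficient mice, against a background of 11.7% of all genes tested, 5.52% higher and 6.17% lower. Of the 7 tested in distal colon 4 were called, Mptx1, Mptx2 and Itln1 lower and Mmp7 higher. The background was 6.1% of all genes tested, 2.79% higher and 3.3% lower. Mptx2 passed the distal filter on low counts largely through control libraries and Mmp7 largely through deficient libraries, the group where each was higher. These 2 genes therefore add little to the count of distal calls. The median log2 fold change of the genes tested was -0.23 in proximal and -0.93 in distal colon, against 0.01 and 0.02 over all genes tested. When the genotype effects of the segments were compared within mice, edgeR called 1 of the 7 genes, Mmp7, in the higher direction, against 1.01% of all genes tested, 0.432% higher and 0.58% lower.

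**Figure D2:**
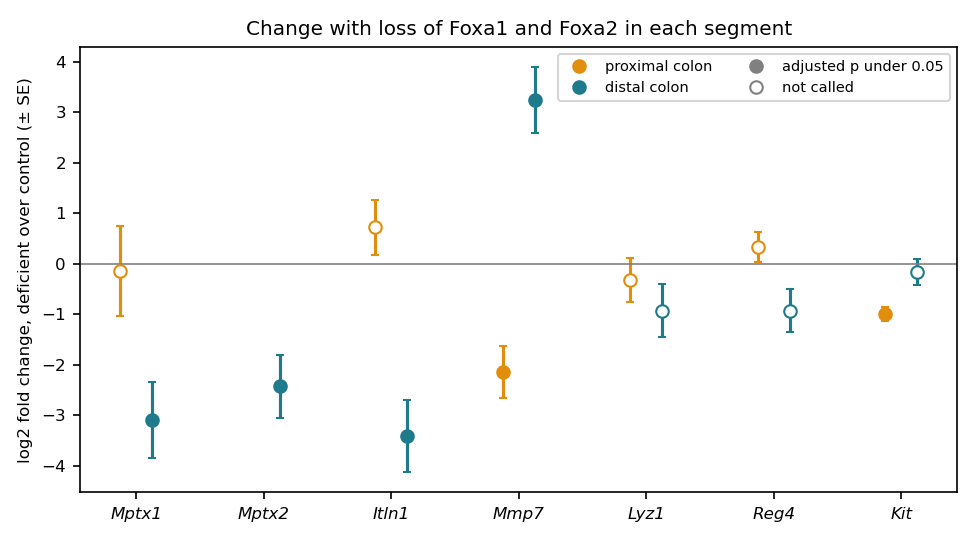
log2 fold change of deficient over control libraries with its standard error for the 7 genes tested, in proximal and distal colon. Filled points passed an adjusted p of 0.05, and Mmp7 lies at -2.15 in proximal and 3.24 in distal colon.

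Of the markers of deep crypt secretory cells, Kit was called in proximal colon and Reg4 in neither segment. Reg4 encodes a secreted C-type lectin of the Reg family. In proximal colon its lowest, median and highest levels were 213, 341 and 485 CPM in deficient and 108, 336 and 417 CPM in control libraries. The groups overlapped, and the log2 fold change was 0.33 (SE 0.29, adjusted p = 0.575). The 3 control mice of 18 months held the 3 lowest proximal control values, 108 to 232 CPM, against 336 to 417 CPM in the 4 control mice of 9 to 11 months. Restricted to mice of 9 to 13 months the log2 fold change was -0.11 (SE 0.21, adjusted p = 0.874), so its sign depended on the 18-month controls. In distal colon Reg4 stood at 10.2, 53.3 and 88.7 CPM in deficient libraries, against 45.8, 101 and 147 CPM in control libraries. The 18-month controls were not the lowest there, at 114 and 147 CPM, against 45.8 to 122 CPM at 9 to 11 months. All 7 distal deficient libraries lay below the control mean, but the ranges overlapped and the change of -0.93 (SE 0.43) was not called (adjusted p = 0.272). The difference between segments, -1.34 (SE 0.50), was not called either (adjusted p = 0.283). Reg4 was lower in distal than in proximal colon in 7 of 7 deficient and 6 of 6 control mice, with log2 fold changes of -3.12 (SE 0.29, adjusted p = 4.01e-05) and -1.77 (SE 0.36, adjusted p = 0.0039).

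Kit, the receptor for stem cell factor, was lower in deficient proximal colon. The lowest, median and highest levels were 19.8, 23.2 and 35.1 CPM in deficient libraries and 41.7, 53.7 and 68.4 CPM in control libraries. The groups did not overlap, and the log2 fold change was -0.99 (SE 0.14, adjusted p = 0.000163), or 50.3% of the control level. Of the protein-coding Kit transcripts, the one of 5241 bases was at 9.96 ± 4.57 CPM in deficient and 21.8 ± 5.94 CPM in control libraries and the one of 5214 bases at 6.35 ± 4.43 in deficient and 15.2 ± 5.55 CPM in control libraries (SD, n = 7 each). In distal colon Kit stood at 24.4, 30.5 and 51.8 CPM in deficient and 17.8, 39.9 and 63.5 CPM in control libraries, with overlapping ranges and a log2 fold change of -0.16 (SE 0.26, adjusted p = 0.794). The proximal and distal changes differed by 0.87 (SE 0.25), which was not called (adjusted p = 0.131). It was called by DESeq2 (0.86, adjusted p = 0.029) and without control replicate 3 (1.07, adjusted p = 0.0216).

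Kit is also carried by mast cells and by the interstitial cells of Cajal, the pacemaker cells of gut muscle, and both are in a whole-wall sample. The 12 mast cell genes summed to between 8.81 and 20.6 CPM in deficient and between 2.26 and 5.29 CPM in control proximal libraries. Of 8 tested, 6 were called higher and 0 lower. However, 11 of the 12 had a median under 1 CPM in control proximal libraries, against 7 in deficient ones. Some tested genes may thus have passed the filter through the deficient group alone, where a call of lower was hardly possible. The 9 genes of interstitial cells of Cajal summed to 110 to 143 CPM in deficient proximal libraries, against 143 to 179 CPM in control proximal libraries, and 2 of 9 were called lower. Ano1, a chloride channel used as a marker of these cells, stood at 10.3 to 15.5 CPM in deficient proximal libraries. In control proximal libraries it stood at 18.2 to 26.9 CPM, a log2 fold change of -0.75 (SE 0.12, adjusted p = 4e-04). The other called gene was Lrig1, at -0.48. The remaining 7 were not called, and the median of the list was -0.13. Distal over proximal, Ano1 was higher by 3.26 in control and 4.45 in deficient mice on the log2 scale, where Kit differed by -0.43 and 0.44. Over all genes tested in proximal colon 5.52% were called higher and 6.17% lower. None of the 12 mast cell genes or the 9 genes of interstitial cells of Cajal was at 0 in every library of a group. In distal colon, where Kit was not called, the mast cell sum was 15.9 to 99.8 CPM in deficient mice, against 5.02 to 11.4 CPM in control libraries, and of 8 genes of interstitial cells of Cajal 0 were called by edgeR and 0 by DESeq2, with 1 at an unadjusted p under 0.05. The part of either cell type in the Kit difference was not tested.

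**Figure D3:**
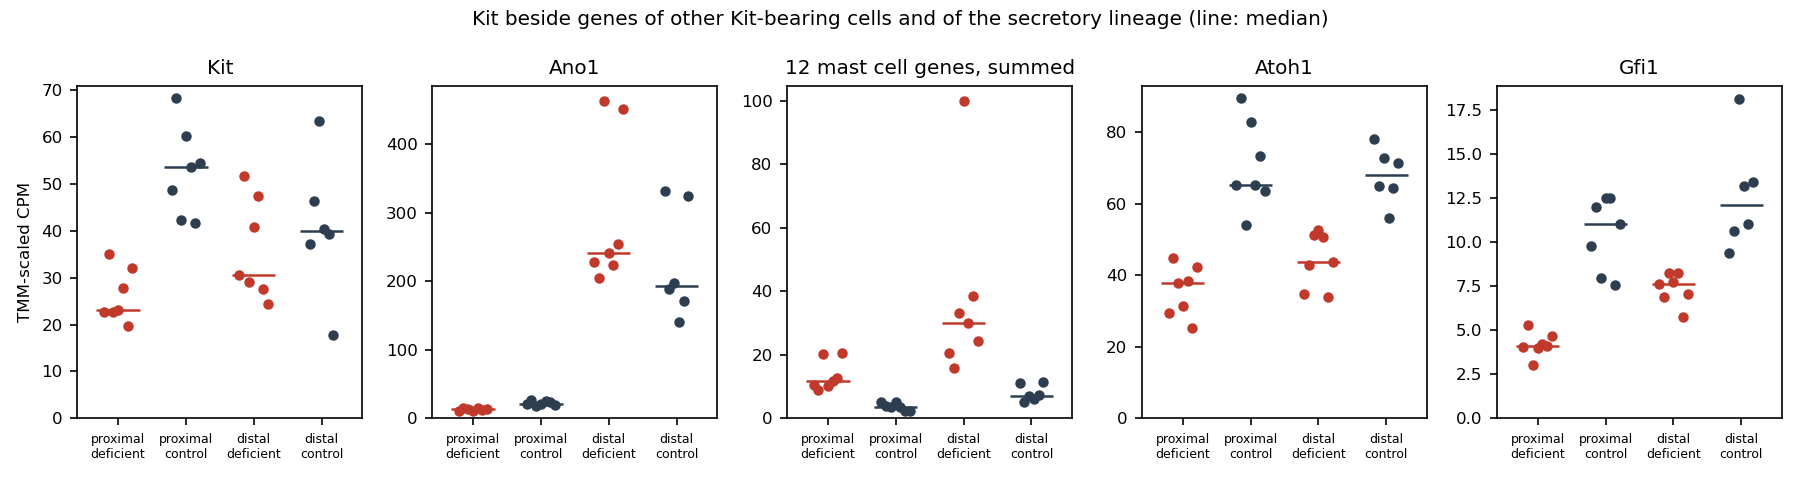
TMM-scaled CPM of Kit, of Ano1 (interstitial cells of Cajal), of 12 mast cell genes summed, and of the secretory regulators Atoh1 and Gfi1 in every library, with group medians as lines. In proximal colon Kit, Ano1, Atoh1 and Gfi1 were lower in deficient libraries and the mast cell sum was higher.

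Mptx1 and Mptx2, which encode mucosal pentraxins, were genes of distal colon. Mptx1 lay at 34.6, 277 and 969 CPM (lowest, median and highest) in deficient distal libraries and at 1126, 3816 and 7123 CPM in control distal libraries. The log2 fold change was -3.09 (SE 0.75, adjusted p = 0.023), 11.7% of the control level. The groups did not overlap in TMM-scaled CPM, but in plain CPM the highest deficient library, 959 CPM, passed the lowest control library, 895 CPM. The call was lost without deficient replicate 6 (-3.0, adjusted p = 0.054) and in mice of 9 to 13 months (-2.99, adjusted p = 0.0559), and was kept without the 4 libraries low in Cdx2 (-3.52, adjusted p = 0.0213). In proximal colon Mptx1 reached at most 3.44 CPM in deficient and 1.81 CPM in control libraries, with overlapping ranges and no call (-0.14, SE 0.89, adjusted p = 0.953). The 2 highest proximal deficient values, 3.44 and 2.33 CPM, were those of the 2 mice labelled female. These were also the oldest deficient mice, at 13 and 12 months, so sex and age cannot be told apart. Among mice labelled male the proximal change was -3.0 (SE 0.79, adjusted p = 0.0249). Distal over proximal colon, Mptx1 was higher by 9.4 (SE 1.17, adjusted p = 0.000204) in deficient and by 11.81 (SE 0.68, adjusted p = 3.94e-06) in control mice on the log2 scale, in 7 of 7 and 6 of 6 mice.

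Mptx2 ran at the edge of detection. In distal colon its CPM was 0 to 0.0926% of that of Mptx1 in deficient and 0.019 to 0.0489% in control libraries. How far Mptx1 reads entered the Mptx2 values was not tested, so the Mptx2 call may not be separate from that of Mptx1. In distal colon it held 0 to 14 estimated counts a library in deficient mice and 8 to 58 in control mice, which is 0 to 0.435 CPM and 0.346 to 1.68 CPM. The highest deficient library lay above the lowest control library, and the change of -2.43 (SE 0.63) was called (adjusted p = 0.0326). That call was lost without any one of deficient replicates 2, 5 and 6 and control replicates 3, 4 and 5, with an adjusted p of up to 0.0697, among mice labelled male (adjusted p = 0.103), in mice of 9 to 13 months (adjusted p = 0.106) and without the 4 libraries low in Cdx2 (adjusted p = 0.0637). In proximal colon Mptx2 had reads in 1 of 7 deficient libraries, at 0.108 CPM, and in 0 of 7 control libraries. The mean of 0.97 CPM in distal control colon was at least 15.0-fold higher than the mean proximal floor of 3 counts a library.

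Itln1 encodes intelectin 1, a lectin that binds microbial sugars and is made by Paneth and goblet cells. In distal colon it lay at 0.701, 2.37 and 3.82 CPM in deficient and at 1.47, 23.7 and 64.3 CPM in control libraries. The control libraries split, with 4 at 19.8 to 64.3 CPM and replicates 1 and 6, the mice with Cre, at 1.47 and 3.01 CPM within the deficient range. The log2 fold change was -3.42 (SE 0.71, adjusted p = 0.00874). Set against the 4 distal controls without Cre it was -3.98 (SE 0.43, adjusted p = 0.000168), and without the 4 libraries low in Cdx2, which include the same 2 controls, it was -3.86 (SE 0.42, adjusted p = 0.000703). limma on the authors' deposited log2 CPM gave -2.58 and no call (adjusted p = 0.0614). In proximal colon Itln1 lay at 0.539, 2.09 and 11.0 CPM in deficient and at 0.694, 1.95 and 3.11 CPM in control libraries, and was not called (0.72, SE 0.54, adjusted p = 0.498). Distal over proximal, the log2 fold change of Itln1 was 0.06 (SE 0.62, adjusted p = 0.947) in deficient mice and 3.3 (SE 0.69, adjusted p = 0.00467) in control mice. The genotype effect on Itln1 differed between segments by -3.23 (SE 1.03), which was not called (adjusted p = 0.196). It was called by DESeq2 (-3.18, adjusted p = 0.0306) and without the mice of the 4 libraries low in Cdx2 (-3.43, adjusted p = 0.0155).

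Lyz1, the lysozyme of Paneth cells, was not called for genotype in either segment. In proximal colon it lay at 1.85, 3.38 and 10.7 CPM in deficient and at 2.31, 4.17 and 10.6 CPM in control libraries, a log2 fold change of -0.32 (SE 0.43, adjusted p = 0.731). In distal colon it lay at 1.02, 4.83 and 8.54 CPM in deficient and at 3.39, 6.47 and 27.4 CPM in control libraries, a change of -0.93 (SE 0.53, adjusted p = 0.389). The ranges overlapped in both segments, and 27.4 CPM was the value of 1 control mouse of 18 months, replicate 5. Lyz2, the near-identical lysozyme of macrophages, was at 125 to 268 CPM in deficient proximal libraries, against 63.6 to 247 CPM in control proximal libraries, and at 102 to 593 CPM in deficient distal libraries, against 159 to 393 CPM in control distal libraries. How far Lyz2 reads entered the Lyz1 values was not tested. Distal over proximal, the log2 fold change of Lyz1 was 0.17 (SE 0.37, adjusted p = 0.73) in deficient mice and 0.85 (SE 0.24, adjusted p = 0.0173) in control mice. The call in control mice was lost without replicate 5 (0.71, adjusted p = 0.0654), without the mice low in distal Cdx2 (0.83, adjusted p = 0.0664) and when mouse was not a term of the fit (1.05, adjusted p = 0.107).

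Mmp7, the activating protease of alpha-defensins in mouse, changed in opposite directions in the 2 segments. In proximal colon it lay at 0.198, 0.624 and 2.12 CPM in deficient and at 0.694, 3.63 and 6.84 CPM in control libraries. All 7 proximal deficient libraries were below the control mean, the ranges overlapped, and the log2 fold change was -2.15 (SE 0.51, adjusted p = 0.0104). In distal colon it lay at 0.395, 2.74 and 7.11 CPM in deficient and at 0.216, 0.323 and 0.628 CPM in control libraries. All 7 distal deficient libraries were above the control mean, and the change was 3.24 (SE 0.65, adjusted p = 0.00749), a 9.45-fold higher level. The distal control values were above but near the floor of 3 counts, 0.0579 to 0.13 CPM in those libraries. The size of the distal change and of the difference between segments is therefore uncertain. The 2 distal deficient libraries within the control range were replicates 1 and 2, at 0.497 and 0.395 CPM. The other 5 were at 2.1 to 7.11 CPM. Cdx2 stood at 305 and 267 CPM in replicates 1 and 2, against 49.6 to 147 CPM in the other 5. Control replicates 1 and 6, with Cdx2 at 98.1 and 77.6 CPM, had Mmp7 at 0.216 and 0.356 CPM. The part of the Cdx2 difference in the distal Mmp7 level was not tested. Within mice the 2 genotype effects differed by 4.79 (SE 0.62, adjusted p = 0.0026).

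The direction between segments turned round with genotype. Mmp7 was higher in distal than in proximal colon in 7 of 7 deficient mice, by 1.77 (SE 0.39, adjusted p = 0.00479), although in replicate 1 the levels were nearly equal at 0.497 and 0.492 CPM. It was lower in distal than in proximal colon in 6 of 6 control mice, by a log2 fold change of -3.01 (SE 0.42, adjusted p = 0.000555). The proximal call and the difference between segments held in every alternative run, the difference at 4.46 to 5.36. The distal call was lost without the 4 libraries low in Cdx2, where the change was 2.92 (SE 0.83, adjusted p = 0.0885).

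**Figure D4:**
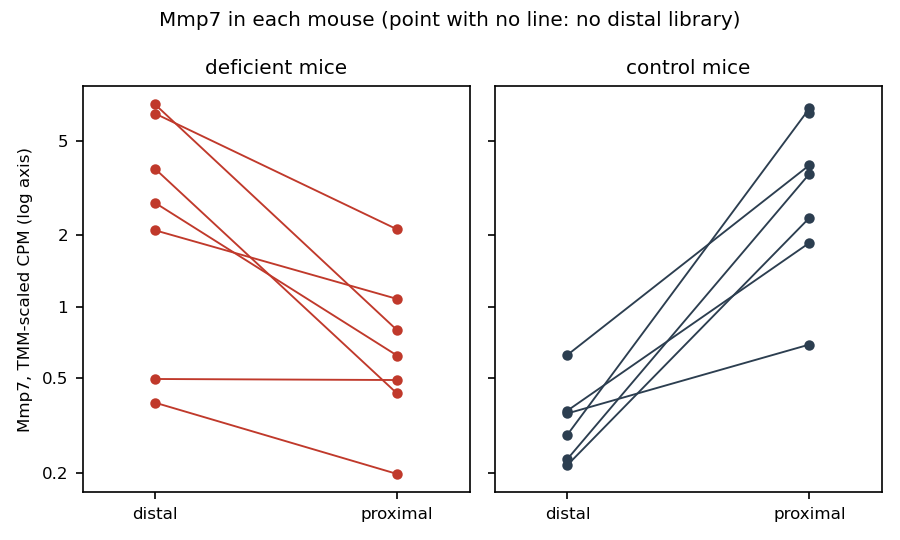
Mmp7 (TMM-scaled CPM, log axis) in distal and proximal colon of each mouse, with the libraries of 1 mouse joined by a line, in deficient and control mice. Lines fall from distal to proximal in all 7 deficient mice, in 1 of them barely, and climb in all 6 control mice with both segments.

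Macrophage genes were read beside distal Mmp7. The 10 macrophage genes summed to 257 to 933 CPM in deficient distal libraries, against 306 to 613 CPM in control distal libraries. Of the 10, 0 were called by edgeR or DESeq2 and 0 were at an unadjusted p under 0.05. The 2 deficient distal libraries with the least Mmp7 also had the least Lyz2 of that group, 108 and 102 CPM. Distal control replicates 5 and 6, however, had Lyz2 at 393 and 307 CPM with Mmp7 at only 0.29 and 0.356 CPM. Mmp10, another metalloproteinase, was the 1 gene that edgeR called among 9 tested in proximal and 6 in distal colon on a list of relatives of the 10 genes, where DESeq2 called 1 and 2. It was higher in deficient mice of both segments, at 1.2 to 2.68 CPM in deficient proximal libraries, against 0.063 to 0.498 CPM in control proximal libraries and at 1.96 to 14.3 CPM in deficient distal libraries, against 0.346 to 1.49 CPM in control distal libraries. Its log2 fold changes were 2.55 (SE 0.33, adjusted p = 7.57e-05) and 2.59 (SE 0.53, adjusted p = 0.00899). Over all genes tested edgeR called 11.7% in proximal and 6.1% in distal colon. The part of macrophages in the distal Mmp7 level was not tested.

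The alpha-defensins, the hallmark antimicrobial peptides of Paneth cells, had reads beyond a few counts in 3 proximal deficient libraries, and most of them in 1. In proximal deficient replicate 3 Defa24 stood at 21.6 CPM, Defa30 at 16.1 CPM and Defa17 at 6.4 CPM. Their sum there was 2039 estimated counts, or 44.1 CPM with an exact 95% Poisson interval of 42.2 to 46.0 CPM, which covers counting error only. In proximal deficient replicates 5 and 7, both labelled female and the oldest deficient mice, the sum was 2.3 and 1.06 CPM. Nearly all of it was Defa24, at 2.24 and 1.04 CPM. The other 4 proximal deficient libraries held 0 to 0.0499 CPM and the 7 proximal control libraries 0 to 0.0995 CPM, at most 4 counts a library. In distal colon all 7 deficient libraries held 0 counts, where 3 counts would be 0.0841 to 0.196 CPM, and the 6 control libraries held 0 to 3 counts. The 3 genes did not pass the filter on low counts. Fitted without that filter all 3 were called higher in proximal deficient mice, with adjusted p of 0.00978 for Defa24, 0.033 for Defa30 and 0.0388 for Defa17. All Defa30 reads and nearly all Defa17 reads of the proximal deficient libraries were in replicate 3, so these calls rest on 1 mouse, and the Defa24 call rests on replicates 3, 5 and 7.

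The same library held other members of the family. Of 22 annotated genes named Defa with a number, 17 had at least 1 count in proximal deficient replicate 3, 4323 counts in all, against 0 to 4 genes in any other library. Beside the 3 genes above, Defa23 was at 11.1 CPM, Defa3 at 8.15, Defa2 at 7.22, Defa20 at 5.51, Defa37 at 3.82, Defa22 at 3.56, Defa21 at 3.28, Defa33 at 2.96 and Defa32 at 1.23 CPM. Itln1 at 11.0 CPM and Lyz1 at 10.7 CPM were each higher there than in the 6 other proximal deficient libraries. In proximal control libraries Itln1 reached at most 3.11 CPM, but Lyz1 was at 10.6 and 9.97 CPM in control replicates 7 and 5. In proximal deficient replicate 3 Mptx1 at 0.13 CPM and Mmp7 at 1.08 CPM were within the range of the 6 other deficient libraries.

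Genes of small-intestinal enterocytes were set beside the defensins. Apoa1 and Apoa4, apolipoproteins of absorptive cells, were highest in the same library, at 244 and 286 CPM, against 0.342 to 116 and 1.28 to 129 CPM in the 6 other deficient and at most 1.06 and 1.44 CPM in the 7 control proximal libraries. Fabp6, the bile acid binding protein of ileum, was at 157 CPM there and highest in deficient replicate 5, at 545 CPM. Over the list, 12 of 14 tested genes were called higher in deficient proximal colon. The summed level was 1450 to 4124 CPM in deficient mice, against 558 to 1165 CPM in control libraries. Of its 16 genes, 5 had a median under 1 CPM in control and 2 in deficient proximal libraries. Some may thus have passed the filter through the deficient group alone. Over all genes tested in proximal colon 5.52% were called higher. In deficient replicate 2, with 0 defensin counts, Apoa1 at 0.342 CPM and Apoa4 at 1.28 CPM lay within the control range. Its Fabp6, at 91.3 CPM, lay above the control libraries, which reached at most 18.0 CPM. Deficient replicate 6 also had 0 defensin counts, but its Apoa1 at 7.07 CPM and Apoa4 at 12.5 CPM lay above the control range. Whether some small-intestinal tissue was in the sample of deficient replicate 3 was not tested.

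**Figure D5:**
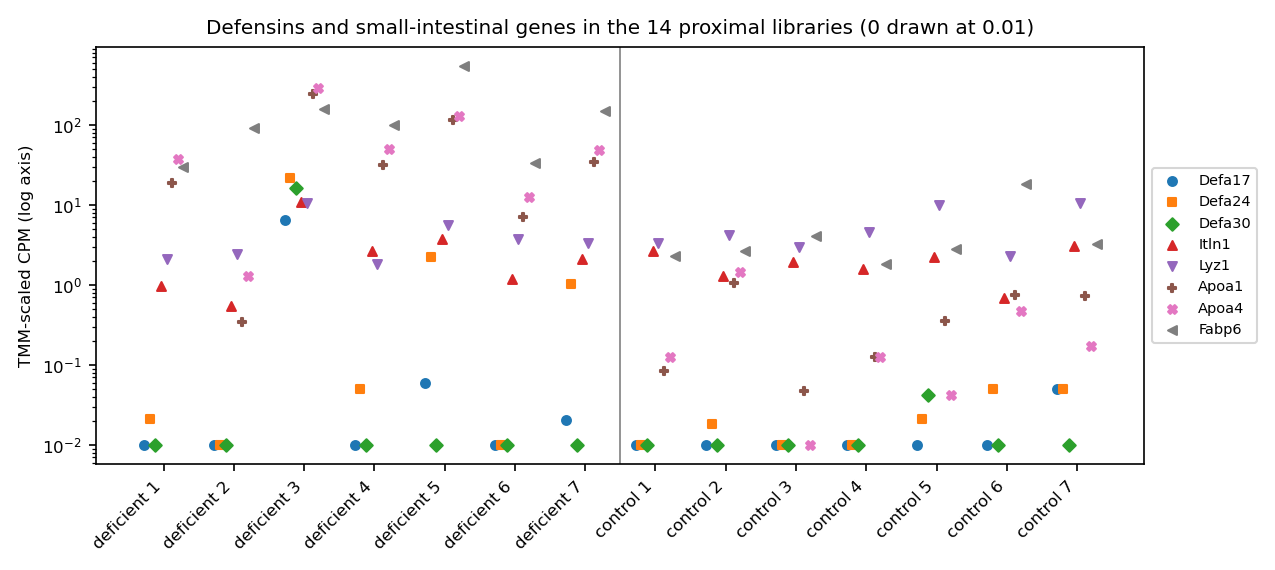
TMM-scaled CPM (log axis) of the 3 defensins, Itln1, Lyz1 and 3 genes of small-intestinal enterocytes in each of the 14 proximal libraries, deficient on the left and control on the right, with 0 drawn at 0.01. Defensins stand between 6.4 and 21.6 CPM in deficient library 3, and Apoa1, Apoa4 and Fabp6 are higher in most deficient than in control libraries.

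Other Paneth cell genes gave no uniform direction. Of 18 annotated genes on that list 5 were tested in proximal colon, with 1 called higher and 2 lower, while of 6 tested in distal colon 0 were called by edgeR and 1, Pla2g2a, by DESeq2, with 1 at an unadjusted p under 0.05. Pla2g2a is named here after its value was seen. Over all genes tested edgeR called 5.52% higher and 6.17% lower in proximal colon, and 6.1% in either direction in distal colon. Ang4, an antimicrobial ribonuclease, stood at 23.4, 68.6 and 830 CPM in deficient and at 8.04, 11.6 and 36.6 CPM in control proximal libraries. The log2 fold change was 3.86 (SE 0.78, adjusted p = 0.00325). Its highest proximal deficient values, 830 and 383 CPM, were in replicates 5 and 7, both labelled female and the oldest deficient mice. In distal colon the Ang4 median was 494 CPM in deficient and 1078 CPM in control libraries, a change of -1.07 that was not called. Clps, pancreatic colipase, was at 0 to 0.713 CPM in deficient proximal libraries, against 0.0248 to 4.35 CPM in control proximal libraries (-4.48, SE 0.91, adjusted p = 0.0033). Nupr1, a stress-response regulator, was at 46.8 to 97.5 CPM in deficient proximal libraries, against 130 to 308 CPM in control proximal libraries, with no overlap (-1.39, SE 0.18, adjusted p = 7.68e-05).

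Several regulators of the secretory lineage fell in proximal colon. Of 18 tested, 7 were called lower and 1 higher in deficient mice, against 6.17% lower and 5.52% higher over all genes tested. The median log2 fold change was -0.16, against 0.01 over all genes tested. Gfi1, a repressor that keeps secretory progenitors from the enteroendocrine fate, lay at 3.02 to 5.3 CPM in deficient mice, against 7.56 to 12.5 CPM in control libraries (-1.3, SE 0.15, adjusted p = 1.76e-05). Atoh1, the basic helix-loop-helix factor that secretory cells depend on, lay at 25.1 to 44.9 CPM in deficient mice, against 54.1 to 89.6 CPM in control libraries (-0.97, SE 0.14, adjusted p = 0.000146). Ephb3, a receptor that places Paneth cells at the crypt base, fell by 1.08 (SE 0.14, adjusted p = 4.79e-05) and Spdef, a goblet and Paneth cell factor, fell by 0.93 (SE 0.13, adjusted p = 0.000185) on the log2 scale. In distal colon 3 of 18 were called lower, with Atoh1 at -0.6 (SE 0.12, adjusted p = 0.00821), Gfi1 at -0.76 (SE 0.16, adjusted p = 0.00831) and Creb3l1, a secretory pathway factor, at -0.7 (SE 0.17, adjusted p = 0.0223). Neurog3, the enteroendocrine factor, was the 1 gene called higher in each segment, by 0.72 (SE 0.18, adjusted p = 0.0162) in proximal and 1.7 (SE 0.38, adjusted p = 0.014) in distal colon. For the difference between segments 0 of the 18 were called by edgeR and 0 by DESeq2, with 9 at an unadjusted p under 0.05. Of 12 goblet cell genes, 6 in proximal and 3 in distal colon were called lower and 0 higher by edgeR. DESeq2 called 8 and 5. Over all genes tested in distal colon edgeR called 3.3% lower and 2.79% higher.

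Niche ligands that Paneth and deep crypt secretory cells can supply moved both ways. Of 9 tested, edgeR called 3 higher and 1 lower in proximal colon and 2 higher in distal colon. DESeq2 called 4 and 3. Over all genes tested edgeR called 5.52% higher and 6.17% lower in proximal colon and 2.79% higher in distal colon. Wnt3 lay at 0.591 to 1.17 CPM in deficient proximal libraries, against 0.0703 to 0.348 CPM in control proximal libraries, and at 1.26 to 2.24 CPM in deficient distal libraries, against 0.0349 to 0.237 CPM in control distal libraries. Of the 6 distal control values 4 were under the floor of 3 counts, so the size of the distal change and of the difference between segments is uncertain. The groups did not overlap in either segment, with log2 fold changes of 2.02 (SE 0.29, adjusted p = 0.000188) and 4.25 (SE 0.37, adjusted p = 1.36e-05). The effects differed between segments by 2.16 (SE 0.39, adjusted p = 0.0132). Ereg, the EGF-family ligand epiregulin, was higher by 1.69 (SE 0.20, adjusted p = 2.65e-05) in proximal and 1.6 (SE 0.33, adjusted p = 0.00797) in distal colon. Egf itself was lower in proximal colon, at 1.0 to 2.19 CPM in deficient mice, against 3.03 to 5.13 CPM in control libraries (-1.51, SE 0.18, adjusted p = 3.38e-05). In distal colon its change of -1.02 (SE 0.34) was not called by edgeR (adjusted p = 0.108) but was by DESeq2. Kitl, the ligand of Kit, was higher in proximal colon by 0.36 (SE 0.08, adjusted p = 0.00633), where Kit was lower.

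For each gene that passed the filter in both segments, the genes of most similar level were sought by Pearson's r of log2(CPM + 0.5) over the 27 libraries after the mean of each segment was taken out. These r describe these libraries, whose points share genotype, mouse and RNA piece. Kit was most like Tbc1d4 (r = 0.94), Creb3l4 (0.93) and Slc12a2 (0.92). Mptx1 was most like Gsdmc2 (0.90), Gsdmc4 (0.89) and Gsdmcl2 (0.88), which are near copies of each other. Mmp7 was most like Plekhs1 (0.80), Wfdc18 (0.80) and Fabp5 (0.78), Itln1 like Trat1 (0.84), Fndc5 (0.80) and Slc26a10 (0.79), Lyz1 like Ccnd3 (0.81), Pla2g2d (0.79) and Emd (0.79), and Reg4 like Akr1b3 (0.77), Tcf21 (0.76) and Plac9b (0.73). Only genes that passed the filter in both segments were candidates, so Mptx2 and the 3 defensins could not appear. None of Kit, Mptx1, Mmp7, Itln1, Lyz1 and Reg4 was among the 3 nearest of another.

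Between segments, 4 of 6 genes tested in deficient mice and 6 of 7 in control mice were called, where 45.1% and 43.8% of all genes tested were called. In deficient mice 22.7% of all genes were called higher and 22.4% lower in distal colon, and in control mice 21.5% and 22.3%. In deficient mice Reg4 was lower and Mptx1, Mmp7 and Kit higher in distal than in proximal colon. In control mice Reg4 and Mmp7 were lower and Mptx1, Mptx2, Itln1 and Lyz1 higher. Kit was higher in distal than in proximal colon in 6 of 7 deficient mice, with a change of 0.44 (SE 0.13, adjusted p = 0.0216), and in 1 of 6 control mice, where the change of -0.43 (SE 0.19) was not called (adjusted p = 0.0862) except without control replicate 3 (-0.63, adjusted p = 0.00596). The call in deficient mice was lost without any one of replicates 2, 4 and 5, at an adjusted p of up to 0.0602, with an offset for transcript length (0.0619) and without the mice low in distal Cdx2 (0.108).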

How the data were processed

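Poly(A) RNA from 1 cm pieces of whole colon of 14 mice gave 27 libraries. Per the submitters' processing notes the authors used bcl2fastq 2.20.0.422, cutadapt 2.5, kallisto 0.46.2 and edgeR, with GRCm38. The authors deposited kallisto estimated counts and TPM per transcript, and a matrix of log2 CPM per segment. Estimated counts were summed by gene over 116728 of 119414 transcripts matched to GENCODE M21, giving 35975 genes, and rounded. Genes were filtered with filterByExpr, scaled by TMM and tested with edgeR 4.0.16 (R 4.3.3), within a segment for genotype and with mouse as a term between segments. The SE is the size of the log2 fold change over the square root of F. Alternatives used DESeq2 1.42.0, limma 3.58.1 on the deposited log2 CPM, other scalings, filters and subsets of mice. The tests were checked on simulated counts. In the deposited tables, length minus effective length was 249 in distal libraries and 214.56 to 245.61 in proximal libraries, and segments differ in this as well as in tissue. The named genes are the 10 genes, up to 4 called genes per list and comparison by smallest p, the defining markers set beside them and the 3 genes most like each. The 10 genes, the lists and the tests were chosen with earlier results of these data known. Replicate numbers join both segments of a mouse. No amino acid sequences were used here. Intervals and floors cover counting error only.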

Additional observations from a re-analysis of the deposited data

Results flagged for a closer look

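Values below stood apart from the rest of their group of 6 or 7 libraries, where the gap to the nearest library was divided by the whole range of the group and compared with Dixon's 95% critical value. Chance alone flags about 1 in 20 groups where values are normally distributed. CPM need not be, and several groups are mostly 0, so the rate here is not known. Where all libraries but 1 are at 0, as for Defa30 below, the ratio is 1.0 by construction. Proximal deficient replicate 3 stood apart for Defa17 at 6.4 CPM (gap over range 0.991), Defa24 at 21.6 CPM (0.896), Defa30 at 16.1 CPM (1.0), the 3 defensins summed at 44.1 CPM (0.948), Itln1 at 11.0 CPM (0.695) and Lyz1 at 10.7 CPM (0.569). Lyz1 stood apart in distal control replicate 5 at 27.4 CPM (0.792).

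Among the genes set beside the 10, Fabp6 stood apart in proximal deficient replicate 5 at 545 CPM (0.752) and in proximal control replicate 6 at 18.0 CPM (0.863). Apoa1 did so in distal deficient replicate 3 at 1.32 CPM (0.796) and Apoa4 in proximal control replicate 2 at 1.44 CPM (0.672). Ang4 did so in proximal control replicate 7 at 36.6 CPM (0.642), and Foxa1 in proximal control replicate 6 at 13.9 CPM (0.667), a mouse labelled with Cre. The summed mast cell genes stood apart in distal deficient replicate 4 at 99.8 CPM (0.731), and the summed niche ligands in distal deficient replicate 5 at 230.0 CPM (0.611) and proximal control replicate 4 at 219 CPM (0.62).

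The effect of genotype differed between distal and proximal colon for Mmp7, by 4.79 on the log2 scale (SE 0.62, edgeR adjusted p = 0.0026), and for Foxa2, by -1.93 (SE 0.29, adjusted p = 0.0046).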

How the results depend on the processing

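No result changed to a called opposite direction under any alternative run. The number of genes called in distal colon was 978, and 1504 with DESeq2. For the difference between segments 178 genes were called, against 529 with DESeq2 and 75 without the 4 distal libraries low in Cdx2, an alternative chosen after seeing the data. Of the 10 genes, the distal calls numbered 4, against 1 with a replicate block, and 2 each with mice of 9 to 13 months, with limma on the deposited log2 CPM and without the libraries low in Cdx2. For the difference between segments 1 was called, against 3 with DESeq2 and 2 each without the filter on low counts, with no replicate block and without the libraries low in Cdx2. Without the filter, 5 against 2 were called in proximal colon and 7 against 4 between segments of deficient mice, and the added calls included the defensins.

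Leaving out each replicate in turn gave 1647 to 2254 genes called in proximal colon, 792 to 1007 in distal colon, 102 to 225 for the difference, 5907 to 7370 between segments in deficient mice and 5381 to 7313 in control mice. The lowest difference counts came without control replicate 2 (102) and without deficient replicate 3 (110). Of the 10 genes, 2 were called in proximal colon each time, 2 to 4 in distal colon, 1 to 2 for the difference, 3 to 4 in deficient and 5 to 7 in control mice.

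Replicate numbers are not shown to pair mice across genotypes: same-numbered deviations correlated at -0.15 to 0.32 in proximal and -0.12 to 0.30 in distal colon, over 0.1 in 1 of 7 and 2 of 6 pairs, and 1 library in each segment correlated best with its own number. With the number as a replicate block 1696 genes were called in proximal and 684 in distal colon. In distal colon the adjusted p was then 0.0486 for Mmp7, 0.0677 for Mptx1, 0.0992 for Itln1 and 0.123 for Mptx2.

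Scaling by library totals alone moved the median of all genes in distal colon to 0.12 and the calls to 623 higher and 395 lower, against 448 and 530 with TMM. In proximal colon it gave 1068 higher and 850 lower, against 927 and 1035. The summed defensins of proximal deficient replicate 3 were 46.5 in plain CPM and 299 in TPM. Depth limits Mptx2 and the defensins, where a library near the floor holds 3 counts or fewer.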
